A study of Mus musculus with 18 samples.

Results

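The genes described here are 10 markers of liver macrophages. They were taken by name and not by a rule on their measured values, though earlier results of these data were known. They make up 10 of the 21153 genes that the arrays name. Clec4f, Timd4, Cd5l, Marco and Vsig4 mark the resident Kupffer cells, Adgre1 and Cd68 mark macrophages in general, and Trem2, Gpnmb and Spp1 mark lipid-associated macrophages. All 10 were measured on 11 probes, since Adgre1 has 2. All of them exceeded background in 4 arrays or more and so stayed in the tests.

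Livers came from individual male C57BL/6 mice without tumors, each measured on an array of its own. Feeding began at 6 weeks of age with a low fat diet (LFD, 10% fat) or a high fat diet (HFD, 60% fat). The LFD group (4 mice) and the HFD group (4 mice) received no treatment. The LFD MTX50 group (5 mice) and the HFD MTX50 group (5 mice) received methotrexate, an antifolate chemotherapy drug, at 50 mg/kg in 5 weekly rounds after 10 weeks on the diet, and liver was taken 1 week after the last dose. All mice stayed on their diet throughout. Levels below are log2 spot intensities relative to the 75th percentile of their own array, so a level of 0 equals that percentile and a difference of 1 is a doubling. The arrays limit the precision by their number, 4 or 5 per group. On all 18 arrays, 83.86 to 90.6% of probes lay well above background and 0 spots were saturated. The arrays lay on 6 slides. LFD and LFD MTX50 mice each lay on slides of their own, so in every comparison with LFD the slide and the group cannot be told apart. HFD mice 3 and 4 shared slide 5 with HFD MTX50 mice 1 and 2. These are whole livers, so fewer cells of a type and less RNA per cell cannot be told apart. The mean level of the 11 hepatocyte markers kept differed between groups. It was 5.93 to 6.10 in LFD, 5.63 to 5.78 in HFD, 6.21 to 6.51 in LFD MTX50 and 5.60 to 6.18 in HFD MTX50. The resident Kupffer cell markers were above background in every mouse.

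Kupffer cells are the macrophages that sit inside the liver sinusoids and clear bacteria, lipoproteins and dying cells from portal blood. They are long-lived, and when some of them die, monocytes from the blood enter the niche and take on Kupffer cell genes, of which Timd4 is acquired late. In fatty liver a further macrophage state appears beside steatotic hepatocytes. It is marked by the lipid receptor TREM2, the lysosomal glycoprotein GPNMB and the secreted phosphoprotein osteopontin, the product of Spp1.

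The start regions of 5 members are shown because they stand for the 3 ways in which the genes varied among mice: Clec4f for the Kupffer cell set, Trem2, Gpnmb and Spp1 for the lipid-associated set, and Cd68, which followed neither. Each is the 250 bases before the transcription start in RefSeq (build GRCm38.p6), written 5′ to 3′ on the strand of the gene, with motif matches in capitals.
Clec4f promoter, chr6:83656117-83656366, minus strand: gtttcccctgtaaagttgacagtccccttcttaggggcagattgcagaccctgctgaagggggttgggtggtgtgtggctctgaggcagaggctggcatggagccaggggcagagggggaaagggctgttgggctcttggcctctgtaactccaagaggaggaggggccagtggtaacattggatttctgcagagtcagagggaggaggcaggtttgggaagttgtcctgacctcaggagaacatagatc
Cd68 promoter, chr11:69666171-69666420, minus strand: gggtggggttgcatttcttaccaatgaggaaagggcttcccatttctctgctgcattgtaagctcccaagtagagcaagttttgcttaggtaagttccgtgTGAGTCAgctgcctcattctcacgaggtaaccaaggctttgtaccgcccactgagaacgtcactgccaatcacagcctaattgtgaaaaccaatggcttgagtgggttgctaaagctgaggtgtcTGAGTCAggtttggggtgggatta
Trem2 promoter, chr17:48346151-48346400, plus strand: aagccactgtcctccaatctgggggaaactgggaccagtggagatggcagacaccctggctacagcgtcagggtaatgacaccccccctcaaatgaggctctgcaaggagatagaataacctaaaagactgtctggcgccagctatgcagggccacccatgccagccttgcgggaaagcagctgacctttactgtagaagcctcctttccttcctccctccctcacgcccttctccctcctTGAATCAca
Gpnmb promoter, chr6:49036268-49036517, plus strand: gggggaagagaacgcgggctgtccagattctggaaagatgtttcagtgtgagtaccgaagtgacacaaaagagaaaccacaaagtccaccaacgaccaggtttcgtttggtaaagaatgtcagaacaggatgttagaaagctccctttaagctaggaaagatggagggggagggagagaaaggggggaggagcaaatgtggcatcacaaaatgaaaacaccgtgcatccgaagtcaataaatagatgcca
Spp1 promoter, chr5:104434861-104435110, plus strand: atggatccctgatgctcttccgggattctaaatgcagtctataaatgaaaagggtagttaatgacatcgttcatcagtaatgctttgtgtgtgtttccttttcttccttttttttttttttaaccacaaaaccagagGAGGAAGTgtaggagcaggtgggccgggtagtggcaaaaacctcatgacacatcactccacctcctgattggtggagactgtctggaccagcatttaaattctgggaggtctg
Motifs were searched on both strands in 10 windows of the 9 members that have an entry, with the second Spp1 start included. TGANTCA, a loose form of the AP-1 motif of stress and growth signalling, was searched with any base at N. It stood 2 times in the Cd68 window, both as TGAGTCA, and 1 time in the Trem2 window, as TGAATCA. Of all 32851 windows of this length 6.75% hold the loose form. GAGGAAGT, bound by the macrophage factor PU.1, stood 1 time in the first Spp1 window and is found in 2.44% of all windows. CACGTG, the E-box of the MITF and TFE lysosomal factors (6.02% of all windows), and TCATGTG, an MITF motif (3.25%), matched in no member window. Adgre1 has no entry.

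In untreated livers Timd4 was lower on the high fat diet, and no other of the 10 genes passed the test. TIMD4 is the phosphatidylserine receptor that mature resident Kupffer cells carry to bind dying cells. Its level was -1.26, -2.45, -1.72 and -1.43 in the 4 LFD mice, and -2.12, -2.53, -2.54 and -2.86 in the 4 HFD mice. LFD mouse 2 lay within the HFD range and the other 3 LFD mice lay above all HFD mice. Timd4 differed by -0.80 ± 0.27 (HFD minus LFD, SE, limma, adjusted p = 0.0383), a 1.74-fold difference. This was 1 of 10 members, or 10%, where 28.3% of all genes tested were called in HFD vs LFD (18% higher and 10.4% lower). Of the 11 hepatocyte markers 3 were lower and 0 higher in the same comparison, and their part in the macrophage differences was not tested. No member's groups failed to overlap, against 40.3% of all genes (24% higher and 16.2% lower). The Timd4 call was lost when any of LFD mice 1, 3 or 4 or HFD mice 2, 3 or 4 was left out (adjusted p 0.0667 to 0.115), and the difference was -0.06 (adjusted p = 0.924) under the normexp background correction. It was also lost with slides as random blocks (-0.79, adjusted p = 0.184) and with the replicate number as a block (adjusted p = 0.0529).

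None of the other Kupffer cell markers passed the test for diet. Clec4f, the galactose-binding lectin found on mouse Kupffer cells, averaged 0.48 ± 0.44 (SD, n = 4) in LFD and 0.45 ± 0.16 in HFD. Its 95% interval for the diet difference ran from -0.56 to 0.50. The interval was -0.64 to 0.81 for Cd5l, a secreted scavenger protein that macrophages make to limit apoptosis and bind lipids, and -0.89 to 0.86 for Marco, a class A scavenger receptor for bacteria, and the sign of both turned with the scaling (Cd5l -0.01 with median scaling, Marco 0.01 with quantile normalization). Vsig4, the complement receptor CRIg by which Kupffer cells catch bacteria in the blood, differed by -0.24 ± 0.21 (limma, adjusted p = 0.381). Of the general markers, Cd68 was 4.81, 4.11, 3.97 and 3.56 in HFD and 4.11 to 4.91 in LFD, with a difference of -0.40 ± 0.28 (limma, adjusted p = 0.282). Adgre1 differed by -0.48 ± 0.35 on its brighter probe and by 0.37 ± 0.19 on its dimmer one (limma, adjusted p = 0.301 and 0.138).

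The 3 lipid-associated genes had higher means in HFD, and none of them passed the test. Trem2 was -3.71, -3.68, -3.07 and -3.43 in LFD and -3.29, -2.24, -1.71 and -2.54 in HFD. HFD mouse 1 lay among the LFD mice and the other 3 HFD mice lay above all of them, with a difference of 1.03 ± 0.46 (limma, adjusted p = 0.0964) that passed without HFD mouse 1 (1.31, adjusted p = 0.0456). That was the 1 pass in 18 fits that each left out 1 array, with adjusted p up to 0.266. Gpnmb was below background in all 4 LFD mice and in HFD mouse 1, and above it in HFD mice 2, 3 and 4 at -4.87, -3.29 and -5.46. Against the background of the LFD arrays the HFD mean was at least 1.84-fold higher. That bound was 1.06 without HFD mouse 3 and 4.06 without HFD mouse 1. The limma test took the LFD values below background as they were read (adjusted p = 0.159), so its p does not belong to the bound. Spp1, the gene for osteopontin, lay between -2.15 and -1.79 in LFD and between -2.20 and -0.35 in HFD, and HFD mice 1 and 3 were the extremes (difference 0.61 ± 0.40, limma, adjusted p = 0.252). When the HFD and LFD arrays were fitted without the treated groups, 3 members passed: Timd4, Trem2 (adjusted p = 0.0299) and Gpnmb (adjusted p = 0.0457). For Gpnmb this fit again used LFD values below background. In that fit 41.7% of all genes passed.

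**Figure D1:**
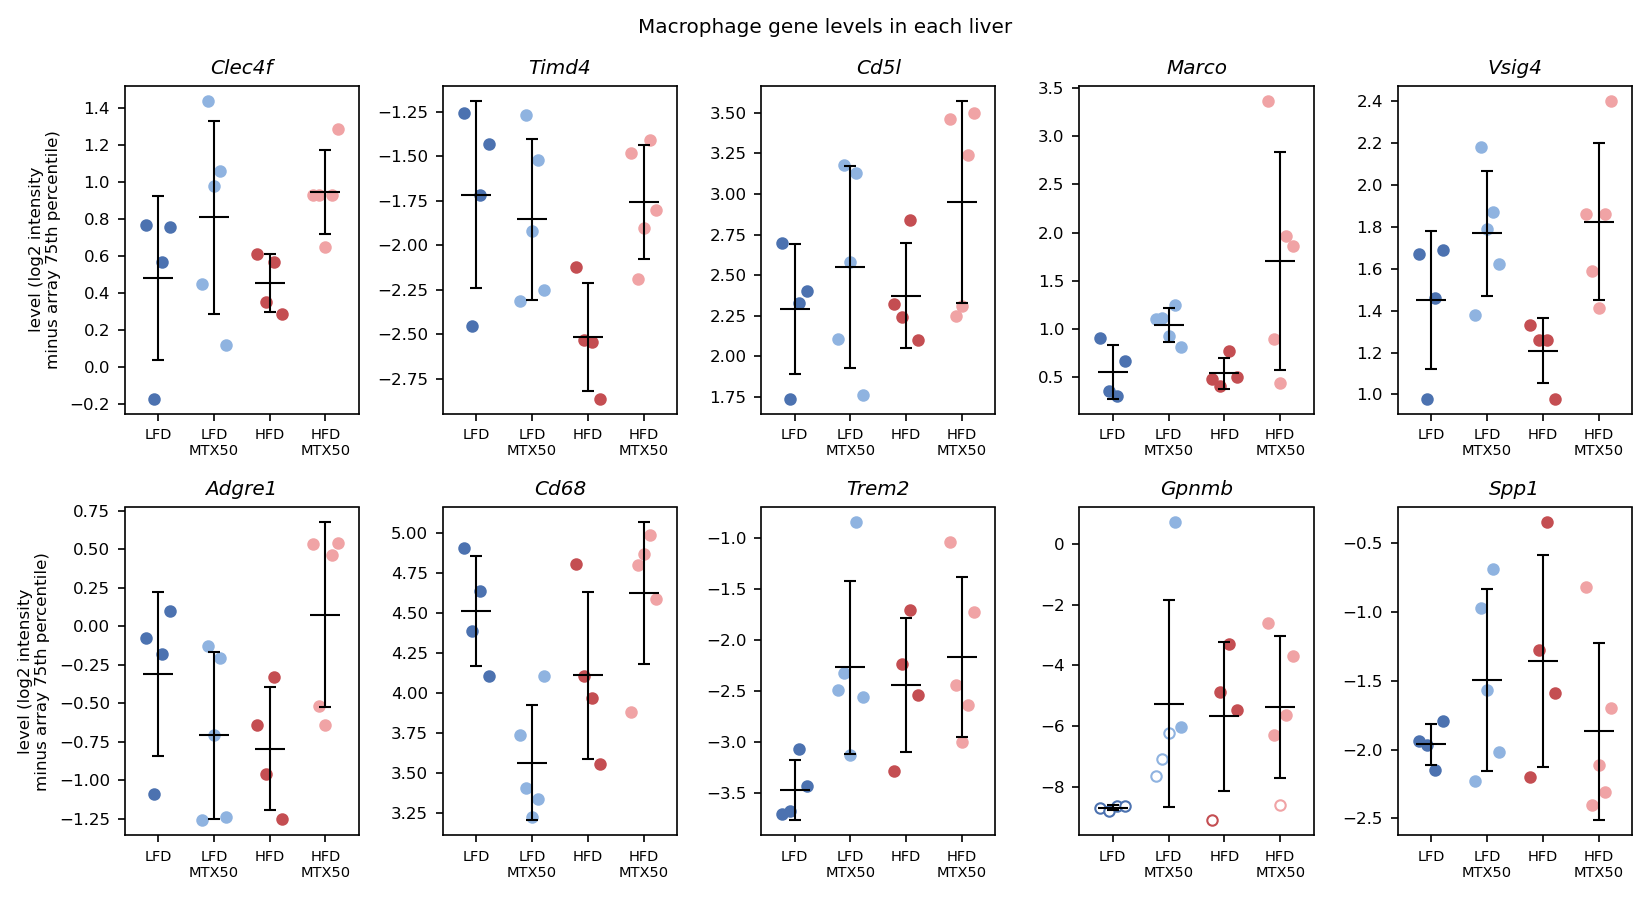
Level of each of the 10 macrophage genes in each liver (log2 intensity minus the array's 75th percentile), by group. Filled points lay well above background and open points did not, and the bar and whiskers give the mean and SD. Timd4 is lowest in HFD, at -2.51 on average, Gpnmb is open in all LFD mice, and Marco in HFD MTX50 spreads from 0.43 to 3.37.

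With methotrexate on the high fat diet, 9 of the 10 members had a higher mean than in HFD, or 8 with Adgre1 read on its dimmer probe, among them all 5 resident Kupffer cell genes, by 0.49 to 1.17. Those 5 differences were above 0 under all 15 alternative settings, several of which change only the test and leave the difference as it is. They also stayed above 0 whichever HFD or HFD MTX50 array was left out. LFD and LFD MTX50 arrays do not enter these differences. Over all genes 45.5% were above 0, and the median difference was 0.54 for the members and -0.04 for all genes. The members are not independent readings. Clec4f, Timd4, Cd5l, Vsig4 and the brighter Adgre1 probe correlated at 0.75 to 0.95 among mice of a group. None of the 10 passed the adjusted p in limma, where 11% of all genes were called in HFD MTX50 vs HFD (4.83% higher and 6.13% lower), and 4 members had an unadjusted p below 0.05. By the methods' t-test with Benjamini-Hochberg adjustment 0 of all 19598 genes passed, and 4 members had an unadjusted p below 0.05. Fitted on the HFD and HFD MTX50 arrays alone, 0 of all 19598 genes passed, so calls in this comparison were made with the spread shared by all 4 groups.

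Clec4f and Vsig4 were the members whose groups did not overlap. These are 2 of 10, both higher, against 11.4% of all genes without overlap (5.23% higher and 6.21% lower). Clec4f was 0.61, 0.35, 0.57 and 0.29 in HFD and 0.93, 0.93, 0.65, 0.93 and 1.29 in HFD MTX50, so that the lowest treated mouse stood just above the highest untreated one. The difference was 0.49 ± 0.24 (limma, adjusted p = 0.167), or 1.41-fold. Vsig4 was 1.33, 1.26, 1.26 and 0.98 in HFD and 1.86, 1.59, 1.41, 1.86 and 2.40 in HFD MTX50, again without overlap. Its difference was 0.62 ± 0.20, or 1.54-fold, and it missed the threshold narrowly (limma, adjusted p = 0.0520). Without HFD MTX50 mouse 3 it was 0.72 (adjusted p = 0.0357), and it also passed without HFD MTX50 mouse 2 (0.68, adjusted p = 0.0449) or LFD mouse 2 (0.62, adjusted p = 0.0454). These were 3 of the 18 fits that each left out 1 array. Over all 18 the Vsig4 difference ran from 0.48 to 0.72, with limma adjusted p up to 0.16.

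Timd4, the gene that was lower in HFD than in LFD, lay in HFD MTX50 at -1.48, -2.19, -1.90, -1.41 and -1.80. HFD MTX50 mouse 2 lay within the HFD range and the other 4 lay above it. The difference from HFD was 0.76 ± 0.26 (limma, adjusted p = 0.0645), and it passed without LFD mouse 2, HFD mouse 1 or HFD MTX50 mouse 2 (adjusted p 0.0416 to 0.0468). These were 3 of the 18 fits that each left out 1 array. Over all 18 the Timd4 difference ran from 0.64 to 0.89, with limma adjusted p up to 0.192. HFD mice stand in both comparisons, so their low values enter each of them. The LFD mice are likewise shared by the diet comparison and the treatment comparison on the low fat diet.

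Marco had the largest mean difference of the resident genes and also the widest spread. It was 0.48, 0.40, 0.77 and 0.50 in HFD and 3.37, 0.89, 0.43, 1.96 and 1.86 in HFD MTX50. Mice 1, 4 and 5 of the treated group stood far above HFD, mouse 2 just above and mouse 3 within its range. The difference was 1.17 ± 0.39, or 2.24-fold (limma, adjusted p = 0.0616), and it passed without HFD MTX50 mouse 3 (1.48, adjusted p = 0.0205) or mouse 2 (1.37, adjusted p = 0.0354). Without mouse 1, the highest, it was 0.75 (adjusted p = 0.0647). Of the 18 fits that each left out 1 array, 2 passed, and the adjusted p rose to 0.146. Cd5l showed a similar split in the treated group, with mice 1, 4 and 5 at 3.46, 3.24 and 3.50 and mice 2 and 3 at 2.25 and 2.31, inside the HFD range of 2.10 to 2.84 (difference 0.57 ± 0.33, limma, adjusted p = 0.241).

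Adgre1 encodes an adhesion receptor widely used to stain mouse macrophages. Its brighter probe followed the same split: mice 1, 4 and 5 of HFD MTX50 were at 0.53, 0.46 and 0.54, and mice 2 and 3 at -0.52 and -0.64, within the HFD range of -1.25 to -0.33. The difference was 0.87 ± 0.33 (limma, adjusted p = 0.0893). The dimmer Adgre1 probe gave -0.19 ± 0.18 (limma, adjusted p = 0.490) for the same comparison, and its sign was opposite to that of the brighter probe in all 4 comparisons, although the deviations of single mice correlated at 0.84 between the probes. The direction of Adgre1 therefore depends on the probe read. Cd68 was 3.88, 4.80, 4.87, 4.99 and 4.59 in HFD MTX50, and mouse 1, the highest for Marco, was the lowest for Cd68 (difference 0.51 ± 0.26, limma, adjusted p = 0.193).

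For the lipid-associated genes the treated and the untreated HFD mice overlapped. Trem2 was -1.04, -2.44, -3.00, -2.64 and -1.73 in HFD MTX50, overlapping the HFD range of -3.29 to -1.71, with a difference of 0.27 ± 0.43 (95% interval -0.64 to 1.19). Gpnmb was above background in 4 of 5 treated and 3 of 4 untreated HFD mice, with levels over all mice of -8.59 to -2.59 and -9.10 to -3.29, and its interval ran from -2.90 to 3.53. Spp1 was the member with a lower mean in HFD MTX50, at -0.82, -2.40, -2.11, -2.31 and -1.70 against -2.20, -1.28, -0.35 and -1.59 in HFD (difference -0.51 ± 0.38, limma, adjusted p = 0.364). HFD mouse 3 and HFD MTX50 mouse 1 were the highest of their group for all 3 genes.

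Slide 5 held both groups, and within it the mean of HFD MTX50 mice 1 and 2 minus that of HFD mice 3 and 4 was above 0 for 8 of 10 members, or 7 with the dimmer Adgre1 probe. Each mean rests on 2 mice, and the members are not independent readings. The difference was 0.50 for Clec4f, 0.86 for Timd4, 0.38 for Cd5l, 1.50 for Marco, 0.61 for Vsig4 and 0.79 for the brighter Adgre1 probe. For Gpnmb it was -0.08 and for Spp1 -0.64. Neutrophil markers had a median difference of 1.03 in this comparison, with 0 of 11 called by limma, and their mean level was -3.44 to -2.63 in HFD and -3.07 to 0.49 in HFD MTX50. Within groups that mean level correlated with Clec4f at 0.40 and with Marco at -0.03 over 18 arrays, and its part in the macrophage differences was not tested.

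**Figure D2:**
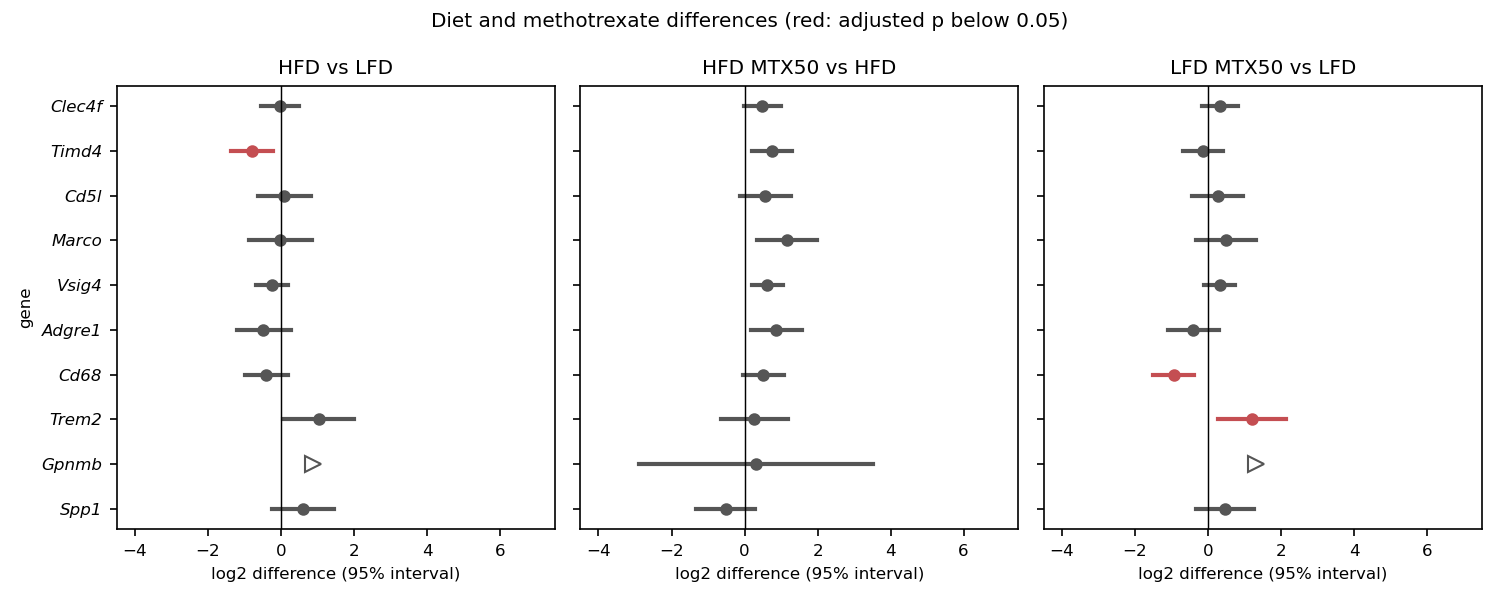
Difference of each macrophage gene in the 3 comparisons (log2) with its 95% interval from limma, red where the adjusted p was below 0.05. An open triangle marks Gpnmb in the comparisons with LFD, where all LFD arrays were below background, and gives the least difference. In HFD MTX50 vs HFD, 9 of 10 points lie above 0 (8 if Adgre1 is read on its dimmer probe) and none is red. In LFD MTX50 vs LFD, Cd68 lies below 0 and Trem2 above it.

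With methotrexate on the low fat diet, Cd68 fell and Trem2 rose, while the resident Kupffer cell genes lay within 0.48 of LFD and none of them passed the test in the fit of all 4 groups. These 2 of 10 members compare with 28.1% of all genes called in LFD MTX50 vs LFD (17.6% higher and 10.5% lower). In the same comparison 4 of the 11 hepatocyte markers were higher and 0 lower, and their part was not tested. CD68 is a heavily glycosylated protein of macrophage lysosomes. Its gene was at 4.91, 4.39, 4.64 and 4.11 in LFD and at 3.74, 3.41, 3.23, 3.34 and 4.11 in LFD MTX50. The groups did not overlap, although LFD mouse 4 and LFD MTX50 mouse 5 stood within rounding of each other. The difference was -0.94 ± 0.26, a 1.92-fold fall (limma, adjusted p = 0.0168). It passed in every fit that left out an array, with adjusted p up to 0.0499, but not where slides entered the fit as random blocks (-0.87, adjusted p = 0.141) or with normexp (-1.21, adjusted p = 0.128). Whether this probe detects Cd68 alone was not tested.

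Trem2 encodes the receptor by which macrophages sense phospholipids and lipoproteins. It was -2.49, -2.33, -3.13, -0.85 and -2.56 in LFD MTX50 against -3.71 to -3.07 in LFD. LFD MTX50 mouse 3 lay inside the LFD range, mouse 4 was far above the rest, and the difference was 1.20 ± 0.43, or 2.30-fold (limma, adjusted p = 0.0473). The call did not hold without LFD MTX50 mouse 4 (0.85, adjusted p = 0.0958). It was also lost when any of 11 other arrays was left out and under 8 of 14 other settings, in each of which the difference stayed above 0.

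Gpnmb, whose product sits in lysosomes of lipid-loaded macrophages, was -7.66, -7.09, -6.22, 0.71 and -6.03 in LFD MTX50 and -8.70, -8.80, -8.65 and -8.62 in LFD. All treated mice were above all untreated mice. However, only LFD MTX50 mice 4 and 5 lay well above background, so the order of the other values is not a measured one. Cd68 was the 1 member of 10 that was above background in both groups and did not overlap, against 29.1% of all genes without overlap (17.6% higher and 11.5% lower). Against the background of the LFD arrays the treated mean was at least 2.46-fold higher. The limma test took the values below background as they were read (adjusted p = 0.0952), so its p does not belong to that bound. Without mouse 4 the treated mean was not above the background of the LFD arrays, so no fold can be given. Spp1 was -0.69 in that mouse, the highest of the group, and -2.23 to -0.97 in the other 4 (difference from LFD 0.47 ± 0.38, limma, adjusted p = 0.358).

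Of the resident genes, Marco was 0.81 to 1.25 in LFD MTX50 and 0.30 to 0.90 in LFD, with a difference of 0.48 ± 0.39 (limma, adjusted p = 0.354). It passed when the LFD and LFD MTX50 arrays were fitted alone (adjusted p = 0.0323), a fit in which 3 members and 31.7% of all genes passed. The differences of Clec4f, Cd5l and Vsig4 were 0.33 ± 0.24, 0.26 ± 0.33 and 0.32 ± 0.20. That of Timd4 was -0.14 ± 0.26, with an interval of -0.68 to 0.40. LFD MTX50 mice 1 and 5 were the 2 lowest of their group for Clec4f, Timd4, Cd5l and Vsig4, and for the brighter Adgre1 probe, whose difference was -0.40 ± 0.33 (limma, adjusted p = 0.371).

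The treatment effect on the high fat diet minus that on the low fat diet passed for 1 of 10 members, where 26.8% of all genes passed (8.66% higher and 18.1% lower). For Cd68 it was 1.46 ± 0.37 (limma, adjusted p = 0.0126): the mean was lower with treatment on the low fat diet by 0.94 and higher by 0.51 on the high fat diet, the latter not past the test. This passed without any 1 of the 18 arrays (adjusted p up to 0.0333) and was lost where slides entered as random blocks (1.38, adjusted p = 0.064) and with normexp (1.66, adjusted p = 0.570). Within groups the Cd68 probe varied most like genes outside the macrophage lists used here (Pearson's r 0.953 to 0.962). It had no positive correlation with any other member, and whether it detects Cd68 alone was not tested. The brighter Adgre1 probe gave 1.26 ± 0.47 (limma, adjusted p = 0.0528), passing when any 1 of 5 arrays was left out (adjusted p 0.0314 to 0.0416), and the dimmer probe -0.30 ± 0.25. Over all 18 such fits the adjusted p of the brighter probe rose to 0.114. Timd4 gave 0.90 ± 0.36 (limma, adjusted p = 0.0737), passing when any 1 of 4 arrays was left out (adjusted p 0.0298 to 0.0473), and the other 4 resident genes 0.17 to 0.68. Over all 18 such fits the adjusted p of Timd4 rose to 0.152. Trem2 and Spp1 were at -0.93 ± 0.61 and -0.98 ± 0.54, each with an interval that held 0, and Gpnmb has no measured value in LFD.

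Among mice of the same group the members varied in 2 sets, with Marco between them and Cd68 apart. After the group means were removed, Clec4f, Timd4, Cd5l, Vsig4 and the brighter Adgre1 probe correlated with each other at 0.75 to 0.95 (Pearson's r, 18 arrays, 10 pairs). Trem2, Gpnmb and Spp1 correlated at 0.75 to 0.90, and the pairs between the sets at 0.17 to 0.70. Marco correlated at 0.27 to 0.67 with the first set and at 0.53 to 0.58 with the second. Cd68 had no positive correlation with any member, with a lowest r of -0.68 for Spp1 and 0.00 for Timd4. Gpnmb was not well above background on 9 of the 18 arrays, and its correlations include those values. These are descriptions, since the points share arrays, slides and scaling.

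**Figure D3:**
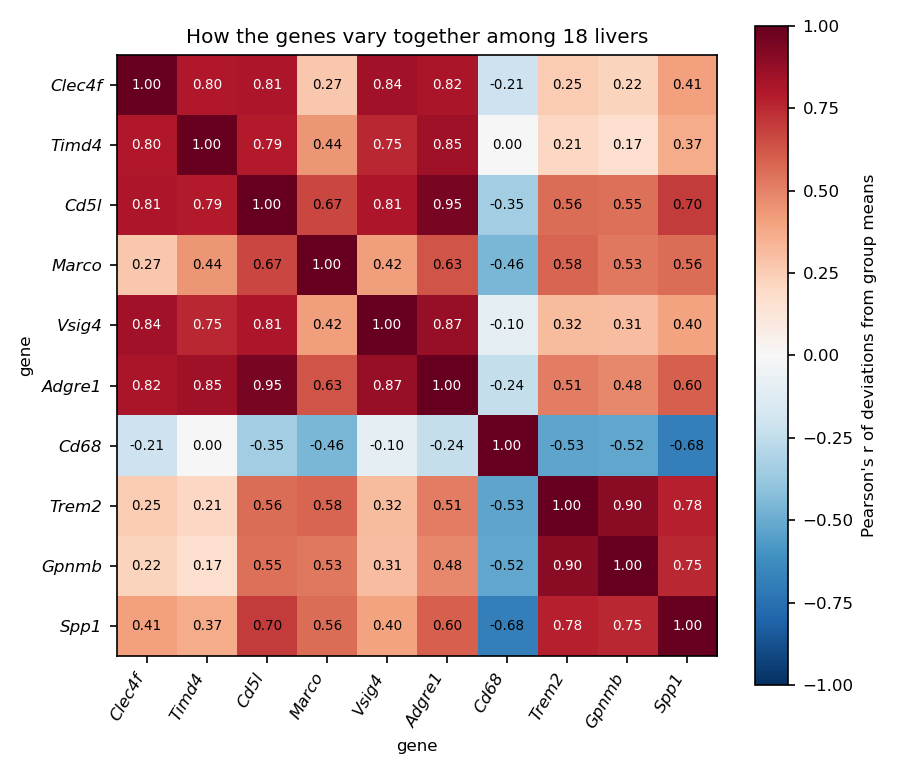
Pearson's r between the members over 18 livers after the mean of each group was subtracted, from -1 (blue) to 1 (red). The Kupffer cell genes form one red block and Trem2, Gpnmb and Spp1 another, and the row of Cd68 holds no value above 0 apart from itself.

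The genes most like Clec4f among mice of a group were Gfra2 (r = 0.919), Folr2 (0.884), Ly86 (0.882), Tyrobp (0.876) and Adgre4 (0.855), over 18 arrays and 17527 genes ranked. Folr2 encodes a folate receptor of tissue-resident macrophages, Ly86 a partner of the radioprotective receptor of macrophages and B cells, and Tyrobp the adaptor DAP12. Their HFD MTX50 vs HFD differences were 0.42 to 0.66 with limma adjusted p of 0.0579 to 0.384. Most like Gpnmb were Trem2 (0.898), Mfge8 (0.886), Ctsk (0.875), Adam8 (0.861) and Clec4d (0.857), with Spearman's rho of 0.769 to 0.856. MFGE8 bridges dying cells to phagocytes and cathepsin K is a lysosomal protease. Of these, Trem2, Mfge8 (0.65 ± 0.23, limma, adjusted p = 0.0445) and Clec4d (1.15 ± 0.38, limma, adjusted p = 0.0323) were higher in LFD MTX50 than in LFD. Over all genes 28.1% were called in that comparison. The genes were picked for following Gpnmb, which stood at 0.71 in LFD MTX50 mouse 4 and at -7.66 to -6.03 in the others. These calls are therefore not independent of that mouse. Without it the Trem2 call was lost (0.85, limma, adjusted p = 0.0958).

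Cd68 was ranked in the same way after its values had been seen. Its nearest genes were 4930554C24Rik (r = 0.962), Neu2 (0.960), Tmc2 (0.956), Iqcd (0.956) and Tmem59l (0.953), none of them a macrophage gene of the lists used here. Like Cd68, all 5 were lower in LFD MTX50 than in LFD, with differences of -1.19 to -0.51 (limma, adjusted p 0.0142 to 0.0464). The Cd68 deviations correlated at 0.32 with the array's 75th percentile and at -0.02 with the share of probes above background. Whether the probe detects Cd68 alone was not tested.

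Other genes of Kupffer cells were read from a list of 25. In HFD MTX50 vs HFD, 5 were higher and 0 lower (20% called, against 11% of all genes). The list's median was 0.36 against -0.04 for all genes. Slc40a1, the iron exporter ferroportin, rose by 0.81 ± 0.14 (limma, adjusted p = 0.00780) and C1qc, a chain of complement C1q, by 0.76 ± 0.22 (adjusted p = 0.0379). Il18bp, the interleukin 18 antagonist, rose by 0.60 ± 0.17 (adjusted p = 0.0381), the factor Irf8 by 0.56 ± 0.17 (adjusted p = 0.0420) and the efferocytosis receptor Mertk by 0.54 ± 0.11 (adjusted p = 0.00919). The count was 2 without HFD mouse 2, 3 or 4 or HFD MTX50 mouse 5, 3 without HFD MTX50 mouse 1, 2 or 4, and 0 when the 2 groups were fitted alone. In the same comparison 1 of 12 sinusoidal endothelial markers was higher and 1 lower, and the mean level of that list correlated with Clec4f at 0.72 within groups.

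In LFD MTX50 vs LFD, 4 of the 25 were higher and 4 lower (32% called, against 28.1% of all genes). In all, 5 passed without LFD mouse 1 or LFD MTX50 mouse 1 or 3. Slc40a1 rose by 0.91 ± 0.14 (limma, adjusted p = 0.00122), the haemoglobin scavenger receptor Cd163 by 0.85 ± 0.23 (adjusted p = 0.0135) and Clec1b, the receptor CLEC-2, by 0.77 ± 0.11 (adjusted p = 0.000615). Zeb2, a factor that keeps Kupffer cell identity, fell by 0.57 (adjusted p = 0.0473). In HFD vs LFD, 1 was higher, Clec1b by 0.44 ± 0.11, and 1 lower, the liver X receptor gene Nr1h3 with a difference of -0.45 ± 0.13. These were 8% of the list, against 28.3% of all genes. The treatment effects differed between diets for 5 of the 25 (20%, against 26.8% of all genes), 4 of them more positive on the high fat diet. The largest was Csf1r, the receptor for the growth factor on which Kupffer cells depend, at 0.97 ± 0.27 (limma, adjusted p = 0.0162), whose mean was 4.29 ± 0.11 in LFD and 3.74 ± 0.13 in treated LFD mice, and 4.07 ± 0.24 in HFD and 4.50 ± 0.47 in treated HFD mice.

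**Figure D4:**
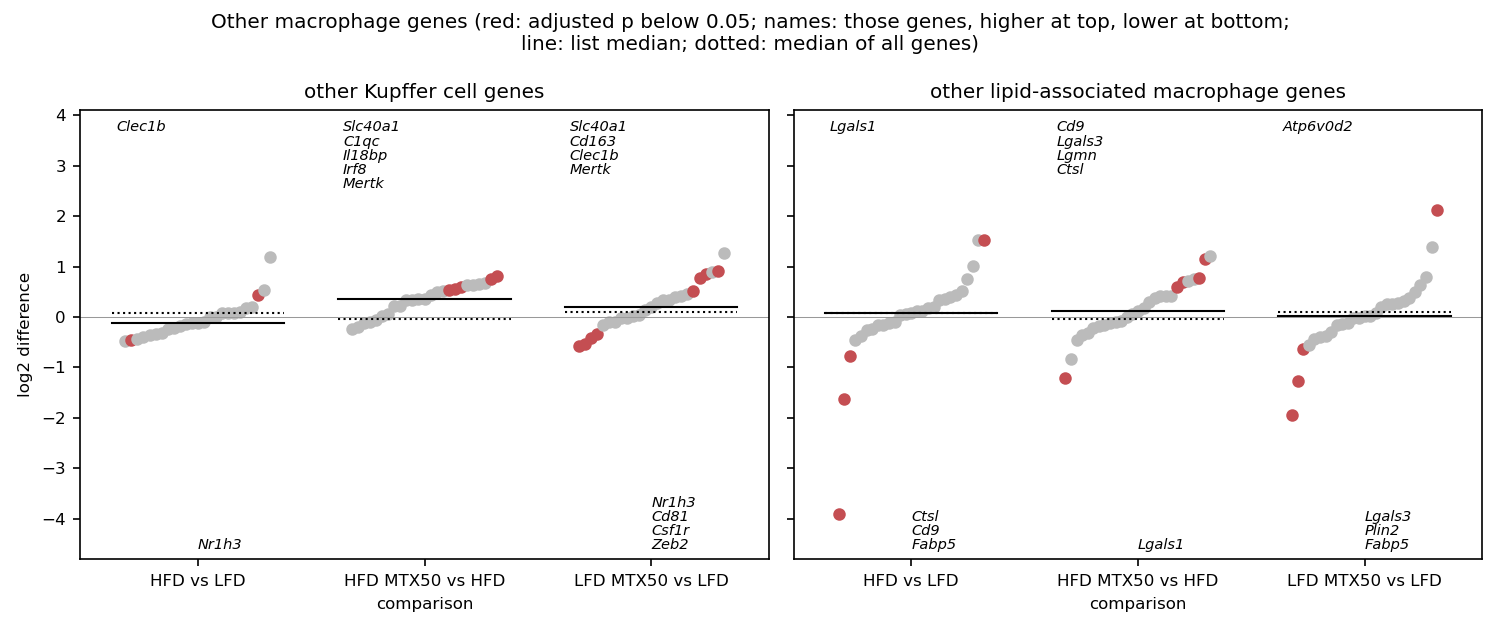
Differences (log2) of the 25 other Kupffer cell genes and the 27 other lipid-associated macrophage genes in 3 comparisons, one point per gene, red and named where limma's adjusted p was below 0.05. The solid line is the list's median and the dotted line that of all genes. The median of the Kupffer cell list in HFD MTX50 vs HFD is 0.36, above the -0.04 of all genes.

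Other lipid-associated macrophage genes moved in both directions. Of 27 kept, 1 was higher and 3 lower in HFD vs LFD, and 4 higher and 1 lower in HFD MTX50 vs HFD. In LFD MTX50 vs LFD 1 was higher and 3 lower. The medians were 0.08, 0.11 and 0.02. The shares called were 14.8%, 18.5% and 14.8%, against 28.3%, 11% and 28.1% of all genes. In HFD MTX50 vs HFD the count was 0 without HFD mouse 2, 3 or 4 or HFD MTX50 mouse 5, and 0 when the 2 groups were fitted alone. In LFD MTX50 vs LFD it was 2 when mouse 2 or 3 of LFD, or mouse 1 or 3 of LFD MTX50, was left out. Many of them are also expressed outside macrophages. Fabp5, a fatty acid carrier, was lower in HFD than in LFD, with a difference of -3.90 ± 0.67 (limma, adjusted p = 0.00333). Cd9, a tetraspanin, was 1.17 ± 0.22 in LFD, -0.44 ± 0.33 in HFD and 0.72 ± 0.71 in HFD MTX50, a fall of 1.62 with diet and a rise of 1.16 with treatment on it (adjusted p 0.00659 and 0.0376), with the HFD mice in both comparisons. Lgals1, a galectin, ran the opposite way at 1.53 and -1.21. Atp6v0d2, a subunit of the lysosomal proton pump of macrophages and osteoclasts, rose by 2.12 ± 0.36 in LFD MTX50 vs LFD (limma, adjusted p = 0.00173).

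The partners of TREM2 and CSF1R were read on 16 genes. In LFD MTX50 vs LFD 5 were higher and 3 lower, or 50% called against 28.1% of all genes. The count was 4 without LFD mouse 1, 2 or 3, and 5 without LFD mouse 4 or LFD MTX50 mouse 2 or 3. In HFD MTX50 vs HFD 0 were higher and 1 lower (6.25%, against 11% of all genes). In HFD vs LFD 4 were higher and 1 lower (31.2%, against 28.3% of all genes). Hcst, the adaptor DAP10, rose by 0.86 ± 0.13 and Il34, the second ligand of CSF1R, by 0.64 ± 0.12 in LFD MTX50 vs LFD (limma, adjusted p = 0.000967 and 0.00241). Plcg2, which carries the TREM2 signal, fell by 0.61 (adjusted p = 0.0212). Dll4, the Notch ligand of the Kupffer cell niche, was lower in HFD MTX50 than in HFD, with a difference of -0.63 ± 0.14 (limma, adjusted p = 0.0166).

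Of the 8 osteopontin receptors, 3 were higher and 0 lower in LFD MTX50 vs LFD (37.5%, against 28.1% of all genes). In HFD MTX50 vs HFD 1 was higher and 0 lower (12.5%, against 11%). In HFD vs LFD 0 were higher and 1 lower (12.5%, against 28.3%). Itgb3, the integrin beta 3 chain, moved in both treatment comparisons. Its level was -2.24 ± 0.11 in LFD and 0.47 ± 0.45 in LFD MTX50, a rise of 2.72 ± 0.32 (limma, adjusted p = 0.000208). On the high fat diet it was -2.27 ± 0.28 and -0.47 ± 0.80, a rise of 1.80 ± 0.32 (limma, adjusted p = 0.00744). Its ligand Spp1 passed in neither. Spp1 is also made by bile duct cells: the mean level of 10 cholangiocyte markers was -3.01 to -2.32 in single mice over all groups, correlated with Spp1 at 0.80 within groups, and its part was not tested. Stellate cell markers correlated with Spp1 at 0.81 and with Trem2 at 0.69, and their part was not tested.

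Receptors for dying cells and modified lipoproteins, a list of 18, had 6 higher and 1 lower in LFD MTX50 vs LFD (38.9%, against 28.1% of all genes). In HFD MTX50 vs HFD 2 were higher (11.1%, against 11% of all genes). The 2 were Mertk and Scarb1, the HDL receptor that hepatocytes carry, which rose by 0.63 ± 0.19 (limma, adjusted p = 0.0432). Cd36, the fatty acid translocase, was higher in HFD than in LFD by 1.48 ± 0.32 (limma, adjusted p = 0.00629). Genes of monocytes and recruited macrophages, 15 kept, had 2 higher and 1 lower in HFD vs LFD and 1 higher in HFD MTX50 vs HFD. In LFD MTX50 vs LFD 2 were higher and 2 lower. These shares of 20%, 6.67% and 26.7% compare with 28.3%, 11% and 28.1% of all genes. Of the monocyte and recruited macrophage genes, Cx3cr1, the fractalkine receptor of patrolling monocytes, was higher in HFD than in LFD by 0.57 ± 0.14 (limma, adjusted p = 0.00977). Itgam, the CD11b chain, was lower in LFD MTX50 than in LFD, with a difference of -0.54 ± 0.15 (adjusted p = 0.0177).

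Beside the higher Trem2 mean of LFD MTX50, 4 of 11 neutrophil markers were higher (36.4%, against 28.1% of all genes). Their mean level was -3.00 to -1.56 against -3.51 to -3.33 in LFD. Within groups that level correlated with Trem2 at 0.16, and its part was not tested. Of 12 markers of B, T and natural killer cells, 4 were higher in HFD vs LFD and 1 was lower in HFD MTX50 vs HFD. In LFD MTX50 vs LFD 3 were higher. The 7 dendritic cell markers kept had 2, 0 and 3 higher. The shares called were 33.3%, 8.33% and 25% for the former list and 28.6%, 0% and 42.9% for the latter. Over all genes they were 28.3%, 11% and 28.1%. In LFD the probes read for Cd4 and Siglech averaged 6.68 and 6.58, above the hepatocyte marker Hnf4a at 5.74. Whether the probes of these 2 lists report their cell type was not tested. The part of B, T, natural killer and dendritic cells in the macrophage values was not tested.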

How the data were processed

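Total liver RNA was hybridised to one-colour Agilent 4×44K arrays by the authors, who deposited spot intensities from Feature Extraction 10.7.3.1, background-subtracted and detrended within each array but not normalized between arrays. The log2 of the processed intensity minus the array's 75th percentile was used. Outlier spots (124 to 294 per array) were left out and spots of a probe averaged. Probes well above background on at least 4 arrays were kept (35739 of 39429), and 71.1% of probes were named through RefSeq (GRCm38.p6). A gene was read on its brightest kept probe. limma 3.58.1 (R 4.3.3) fitted all 4 groups together. Adjusted p-values (Benjamini-Hochberg) cover every kept probe, with a threshold of 0.05. A change from a group below background on all arrays is a bound against the array's lowest signal well above background. The script was tested on simulated data. The members and the gene lists were chosen with earlier results of these data known. All members are named, and from each other list the 4 largest differences past the threshold at most. The arrays lack the mean signal, so the normexp alternative used the median signal. The deposited series table, the background-subtracted intensity rounded, was another alternative. The paper states that mice were caged singly from before the treatment on, and not how they were caged earlier. The p-values measure the spread between these mice.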

Additional observations from a re-analysis of the deposited data

Results flagged for a closer look

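Gpnmb in LFD MTX50 mouse 4 lay at 0.71, far above the next highest of the group at -6.03, and was the only extreme mouse among 44 sets of group and probe tested. Chance flags about 1 in 20 such sets. The effect of methotrexate differed between the diets, by a test of the difference itself in limma, for Cd68 (1.46), and among the other Kupffer cell genes for Csf1r (0.97), Zeb2 (0.92), Clec1b (-0.86) and Nr1h3 (0.55), each as the log2 effect on the high fat diet minus that on the low fat diet. Among the other lipid-associated macrophage genes it differed for Atp6v0d2 (-1.74), Cd9 (1.56) and Lgals3 (1.41). The share called was 10% of the members, 20% of the other Kupffer cell genes and 11.1% of the other lipid-associated genes. Of all genes 26.8% were called in that test. The slides of the LFD and LFD MTX50 groups held no other group, so a slide effect cannot be told apart from these differences. Whether the Cd68 probe detects Cd68 alone was not tested.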

How the results depend on the processing

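The number of members called rests on the setting. In HFD vs LFD it was 1, and 0 with normexp, the series table, the methods' t-test, a 2-fold minimum, slide as random block or the replicate block, and 3 with the compared groups alone. In HFD MTX50 vs HFD it was 0, and 1 with quantile normalization, median scaling or trended variances, and 2 with probes above background on all arrays. In LFD MTX50 vs LFD it was 2, and 0 with normexp or slide as random block, and 1 with quantile normalization, median scaling, no filter on dim probes, the methods' t-test, a 2-fold minimum or the replicate block, and 3 with the compared groups alone. For the difference between treatment effects it was 1, and 0 with normexp or slide as random block, and 2 with median scaling, the series table, probes above background on all arrays or trended variances. Leaving out single arrays gave 0 to 2, 0 to 3, 1 to 2 and 1 to 3 members. Arrays whose loss moved the HFD MTX50 vs HFD count were LFD mouse 2 (2 members), HFD mouse 1 (1), HFD MTX50 mouse 2 (3) and HFD MTX50 mouse 3 (2).

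Signs turned for small differences. With normexp, Timd4 in LFD MTX50 vs LFD was 0.31, Cd5l in HFD vs LFD -0.19 and Cd5l in LFD MTX50 vs LFD -0.05. Cd5l in HFD vs LFD was -0.01 with median scaling, Marco in HFD vs LFD 0.01 with quantile normalization and Gpnmb in HFD MTX50 vs HFD -0.08 with the slide as a fixed block. Without single arrays, HFD vs LFD ranged from -0.25 to 0.07 for Clec4f, -0.10 to 0.22 for Cd5l and -0.10 to 0.10 for Marco. HFD MTX50 vs HFD ranged from -0.01 to 0.52 for Trem2 and -0.82 to 1.12 for Gpnmb, LFD MTX50 vs LFD from -0.38 to 0.01 for Timd4, and the difference between treatment effects from -0.01 to 0.38 for Clec4f. Counts on the other gene lists moved in 260 of 715 combinations of list, comparison and other setting. With single arrays left out, they moved in 214 of 936 such combinations. A count had moved when it changed by over 1.5 times, or to or from 0.

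Over all genes, the median difference with normexp was 0.38, 0.39 and 0.47 in the 3 comparisons, against 0.08, -0.04 and 0.1. Normexp left 2, 0 and 339 of 19598 genes called, against 5555, 2148 and 5503. Slides as random blocks (correlation 0.262 between arrays of a slide) left 383, 1858 and 340. Of the calls, 63.4% were higher with diet and 62.7% with treatment on the low fat diet, and 45.6% and 44.8% with quantile normalization. The replicate block pairs mice that share only a number: their deviations correlated at -0.38 to 0.21. Signal over background limits Gpnmb, not well above it on 9 of 18 arrays.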
